A study of Macaca mulatta with 6 samples.

Results

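The shores of dense CCGG clusters are the CCGG sites that flank the most crowded stretches of profiled sites in the rhesus macaque genome (Macaca mulatta). The positions of both deposited tables were merged into a union of 1357052 sites on chromosomes 1 to 20. A site was dense when 6 or more other sites of the union lay within 500 bp on either side, which held for 1982 sites. A shore site was one that was not dense and lay at most 2000 bp from a dense site, which held for 7866 sites, 0.580% of the union. The rule itself used positions alone. However, only sites listed in a deposited table could be counted, and no listed value was 0. Whether listing depended on signal is not stated, so the neighbour counts may not be independent of it.

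CpG dinucleotides are depleted from most of a mammalian genome because methylated cytosine is lost by deamination, and they remain frequent in CpG islands, many of which lie at promoters and are kept free of methylation. The flanks of an island are called its shores. There the methylation of the island gives way to that of the surrounding DNA, and differences in methylation between cell types are often found in these flanks. A cluster of CCGG sites resembles an island only in that such sites need CpG dinucleotides. Neither base composition nor annotation was used here, so the dense clusters are not called CpG islands.

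The study profiled haploid embryonic stem cells (ESC), which the series title names as parthenogenetic, meaning that only an egg gave them their genome, and sperm, the male gamete. HMST-Seq sequences short tags at CCGG sites after separate digests of the DNA. HpaII is blocked by methylation of the inner cytosine, whereas MspI cuts whether or not that cytosine is methylated. The remaining digest, labelled BGT_MspI, uses MspI, and the labels do not spell out its first part. Each of the 2 cell types had 1 HpaII, 1 BGT_MspI and 1 MspI library, 6 libraries in all, and no library was replicated. The sources used here do not describe the line, passage or animals behind them.

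For each cell type the authors' deposited table gives every site 3 values and the results of 2 comparisons between them. Here the first pair is value 1 with value 2, and the second pair is value 2 with value 3. No name in the tables ties a value to a digest, so no value is read as methylation and no direction as more or less methylated. The size of a contrast was expressed as the relative difference, the first value minus the second divided by their sum, which is 0.5 when the first is 3 times the second. A call is a site whose adjusted p in the authors' deposited table was below 0.05. With 1 library per digest no difference between cell types or site classes was tested, and every comparison below is a description. Intervals are 95% Wilson intervals. They cover counting error alone and are too narrow where neighbouring sites move together.

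The lowest deposited values fell into separate bands, as whole reads would give. In sperm the lowest bands of value 1 had medians of 2.98, 6.15 and 9.13, and in haploid ESC they had medians of 1.56, 3.21 and 4.96. Values 2 and 3 had finer bands, with lowest medians from 0.671 in sperm to 0.907 in haploid ESC. The number of reads behind a band is not stated in the tables, so read depth is unknown. Of the shore sites, 26.6% in sperm and 12.6% in haploid ESC had a value 1 within the 3 lowest bands, where 1 step changes the contrast greatly. The shares were larger at sites over 2000 bp from a dense site, at 33.7% and 14.1%, and at dense sites, at 29.2% and 16.4%.

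The 1982 dense sites formed 773 clusters when dense sites at most 1000 bp apart were joined. Of these, 307 held 1 dense site and the largest held 10. The clusters spanned a median of 71 bp and at most 1014 bp. Each had between 1 and 20 shore sites, with a median of 10. Shore sites lay a median of 494 bp from the nearest dense site, and a median of 3 other sites stood within 500 bp of them, against 1 for sites over 2000 bp away. Chromosomes 16, 19 and 20 held 28.5% of the shore sites (2242) and 12.7% of the union. The share of sites that were shore sites was highest on chromosome 19, at 1.65% (868 sites), and lowest on chromosome 4, at 0.122% (90 sites).

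Distances below are given in 5 classes, each open at its lower bound and closed at its upper bound (above 250 and up to 500 bp is written 250 to 500 bp). Shore sites were listed in both tables about as often as other sites. The haploid ESC table listed 7635 of the 7866 and 7380 stood in the sperm table. Both tables listed 7149 shore sites (90.9%, interval 90.2% to 91.5%), beside 89.6% of all sites in the union. The haploid ESC table alone listed 486 (6.18%), and the sperm table alone 231 (2.94%). By distance, the share listed in both ranged from 89.7% at 1 to 250 bp to 91.9% at 500 to 1000 bp and at 1500 to 2000 bp. A site that a table does not list was not analysed in it here.

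The 3 values ran across the shore in different ways. Values 2 and 3 were highest beside the dense sites and fell over the first classes, while the median of value 1 was lowest next to the dense sites in haploid ESC. In the authors' deposited haploid ESC table, the median of value 1 was 18.9 at 1 to 250 bp, 24.0 at 250 to 500 bp, 23.8 at 500 to 1000 bp, 23.3 at 1000 to 1500 bp and 21.7 at 1500 to 2000 bp. The corresponding medians of value 2 were 28.5, 22.8, 19.7, 19.1 and 19.4. Those of value 3 were 31.5, 25.1, 21.2, 20.9 and 21.8. The values at 1 to 250 bp were close to those of the dense sites themselves, which had medians of 19.1, 28.5 and 31.1 for values 1, 2 and 3. Sites over 2000 bp away had medians of 18.3, 17.9 and 18.1, so all 3 values were higher at shore sites of the outermost class than at these.

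In the authors' deposited sperm table, the median of value 1 went from 20.2 at 1 to 250 bp through 22.9, 22.5 and 20.2 to 18.2 at 1500 to 2000 bp. Value 2 fell from 32.1 through 23.2, 17.8 and 18.1 to 18.2, and value 3 from 35.1 through 24.5, 19 and 18.8 to 18.9. Sperm sites over 2000 bp away had medians of 15.4, 16.3 and 16.3. Both tables thus showed values 2 and 3 falling with distance over the inner classes and level beyond 500 bp. The spread of value 1 was wide next to the dense sites and narrowed outwards. Its upper quartile fell from 59.9 at 1 to 250 bp to 39.9 at 1500 to 2000 bp in haploid ESC, and from 111 to 34.8 in sperm.

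**Figure D1:**
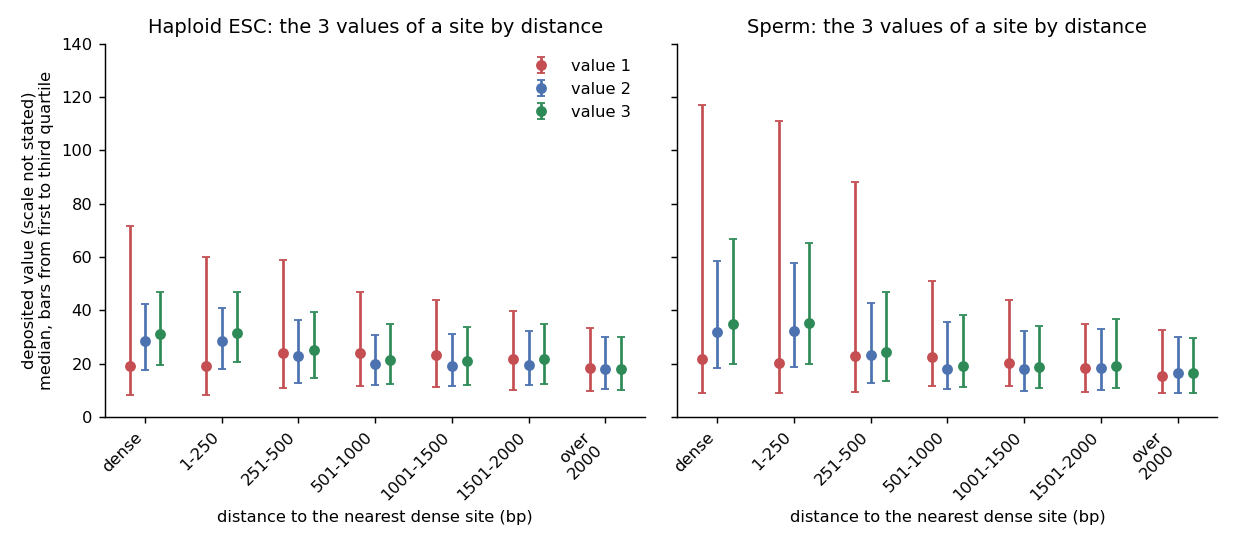
Deposited values 1, 2 and 3 (vertical axis, scale not stated) of haploid ESC (left) and sperm (right) by distance to the nearest dense site in bp (horizontal axis); points are medians over sites and bars run from the lower to the upper quartile. Values 2 and 3 are highest at dense sites and at 1 to 250 bp, with medians from 28.5 to 35.1, and lie between 17.8 and 21.8 from 500 to 2000 bp, while the bar of value 1 shortens with distance.

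The median contrast between value 1 and value 2 was lowest in the innermost class of the shore, where it was negative. Its median relative difference in haploid ESC was −0.130 at 1 to 250 bp, as low as at dense sites (−0.133), then 0.079, 0.112, 0.121 and 0.058 in the following classes. In sperm the medians were −0.190, 0.032, 0.095, 0.064 and −0.024, beside −0.135 at dense sites. Value 2 was thus the higher of the pair at the typical innermost shore site, and value 1 between 250 and 1500 bp. Over all shore sites the median was 0.054 in haploid ESC and −0.001 in sperm, and over sites more than 2000 bp away it was 0.012 and −0.013. The sign of the innermost class depended on sites with low values in haploid ESC, whereas in sperm it stayed negative without them. Over sites whose pair summed to at least the median sum of the table, the dense median turned positive, to 0.127 for haploid ESC and 0.078 for sperm. The 5 shore classes then had 0.079, 0.242, 0.279, 0.206 and 0.149 in haploid ESC and −0.017, 0.183, 0.179, 0.161 and 0.019 in sperm. The innermost class remained the lowest of the 5 in both tables. The quartiles over all shore sites were far wider than these shifts, from −0.357 to 0.439 in haploid ESC and from −0.433 to 0.440 in sperm.

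First-pair calls were more frequent at shore sites than at all sites and less frequent than at dense sites. In haploid ESC, 75.5% of the shore sites were called (interval 74.5% to 76.5%), beside 66.8% of all sites and 83.9% of dense sites. In sperm, 77.3% were called (76.4% to 78.3%), beside 69.7% of all sites and 85.9% of dense sites. The share fell from 82.1% at 1 to 250 bp through 76.7%, 74.8% and 70.8% to 70.9% at 1500 to 2000 bp in haploid ESC. In sperm it fell from 85.1% through 79.4%, 74.9% and 73.3% to 70.5%. The sum of the pair ran the same way. Its median in haploid ESC was 54.1 at dense, 49.0 at shore and 39.4 at all sites, and in sperm 72.4, 51.1 and 37.4. Between the innermost and outermost classes it fell from 53.8 to 45.4 in haploid ESC and from 67.6 to 43.5 in sperm. The part that the size of the values plays in the calls was not tested.

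The direction of these calls turned over with distance. In haploid ESC, value 1 was the higher of the called pair at 41.2% of shore sites (34.7% of all sites) and value 2 at 34.3% (32.2% of all sites). At 1 to 250 bp the shares were 35.4% with value 1 higher and 46.7% with value 2 higher, whereas at 1000 to 1500 bp they were 43.8% and 27.0%. In sperm, value 1 was higher in the call at 39.0% of shore sites (34.6% of all sites) and value 2 at 38.3% (35.1% of all sites). At 1 to 250 bp these were 35.3% and 49.8%, and at 500 to 1000 bp they were 43.6% and 31.2%. In the outermost class of sperm, at 1500 to 2000 bp, the shares of 33.9% and 36.6% were near those of all sites. In haploid ESC value 1 was still higher in more calls there, at 39.1% against 31.8%.

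**Figure D2:**
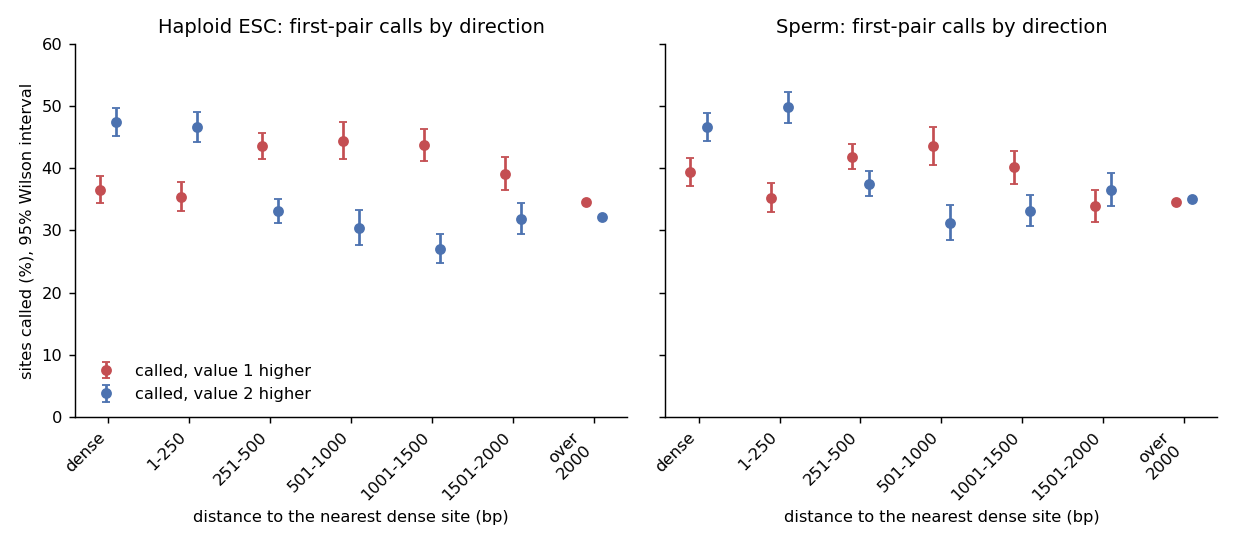
Share of sites called for the first pair (vertical axis, percent, with 95% Wilson intervals) by distance to the nearest dense site in bp (horizontal axis), split by which value was higher, for haploid ESC (left) and sperm (right). Calls with value 2 higher lead at dense sites and at 1 to 250 bp, with 46.7% and 49.8% of sites in the latter class, and calls with value 1 higher lead from 250 to 1500 bp.

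The second pair gave fewer calls, and at shore sites these leaned towards value 3. In haploid ESC, 15.7% of shore sites were called for the second pair (interval 14.9% to 16.5%), beside 11.1% of all sites. Value 3 was the higher at 12.5% of shore sites (6.36% of all sites) and value 2 at 3.25% (4.78% of all sites). In sperm, 13.6% were called (12.8% to 14.4%), beside 7.86% of all sites. Value 3 was the higher at 9.97% (4.01% of all sites) and value 2 at 3.59% (3.85% of all sites). The share called fell with distance from 20.2% to 13.1% in haploid ESC and from 19.6% to 8.45% in sperm between the innermost and outermost classes. The median relative difference of the second pair was −0.038 at shore sites in haploid ESC and −0.034 in sperm. Over all sites more than 2000 bp away it was −0.002 and 0.001. The lean was not particular to shore sites. Dense sites of haploid ESC were called with value 3 higher at 14.1% and value 2 higher at 3.35%. Those of sperm had 13.3% and 3.95%. Just outside the shore, at 2000 to 3000 bp, the shares were 9.79% and 3.67% in haploid ESC, and 7.83% and 3.12% in sperm. Medians of that class were −0.033 in haploid ESC and −0.032 in sperm, and those of dense sites −0.039 and −0.042. Beyond 100000 bp they were −0.0001 and 0.004.

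The outer edge of the shore, set at 2000 bp by the rule, was no step in the share of first-pair calls. Sites at 2000 to 3000 bp, just outside, were called for the first pair at 70.6% in haploid ESC and 71.9% in sperm, and sites at 1500 to 2000 bp, just inside, at 70.9% and 70.5%. The direction of the calls did differ. Calls with value 1 higher were at 44.0% just outside and 39.1% just inside in haploid ESC, and at 38.3% and 33.9% in sperm. Those with value 2 higher were at 26.6% and 31.8% in haploid ESC, and at 33.5% and 36.6% in sperm. The median first-pair contrast was likewise higher outside, at 0.118 against 0.058 in haploid ESC and 0.049 against −0.024 in sperm. In haploid ESC it was between 0.107 and 0.116 in the classes from 3000 to 100000 bp and 0.003 only beyond 100000 bp. The surrounding DNA up to 100000 bp thus had a higher median contrast than the haploid ESC shore as a whole, at 0.054. In sperm the classes from 2000 to 100000 bp had medians from 0.022 to 0.059, against −0.001 over its shore. At the inner edge, the 1766 shore sites of haploid ESC with 5 other sites within 500 bp, 1 short of dense, had a median contrast of −0.116 and a call share of 80.9%, beside −0.133 and 83.9% at dense sites. The corresponding 1695 sites of sperm had −0.180 and 84.0%, beside −0.135 and 85.9%.

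Distance and local crowding are linked by the rule, because sites near a dense site have many neighbours. Shore sites were therefore also set beside sites over 2000 bp away with the same number of other sites within 500 bp. Shore sites with no other site within 500 bp, all of them more than 500 bp out, showed the largest gap. Their median first-pair contrast was 0.252 in haploid ESC and 0.288 in sperm, against −0.057 and −0.106 at isolated sites over 2000 bp away. Value 1 of these shore sites had a median of 28.5 in haploid ESC against 17.1, and 24.0 in sperm against 14.7. With 1 other site, the contrasts were 0.186 against 0.063 in haploid ESC and 0.172 against 0.075 in sperm. With 2 other sites they were nearly equal, at 0.137 against 0.136 and 0.088 against 0.093. With 3 other sites they were 0.033 against 0.109 and −0.036 against 0.024, and with 4 they were −0.037 against 0.051 and −0.145 against −0.034. With 5 other sites they were −0.116 against −0.002 in haploid ESC and −0.180 against −0.092 in sperm. Among shore sites the contrast thus fell with each added neighbour, whereas among sites over 2000 bp away it rose up to 2 neighbours and fell from there on.

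**Figure D3:**
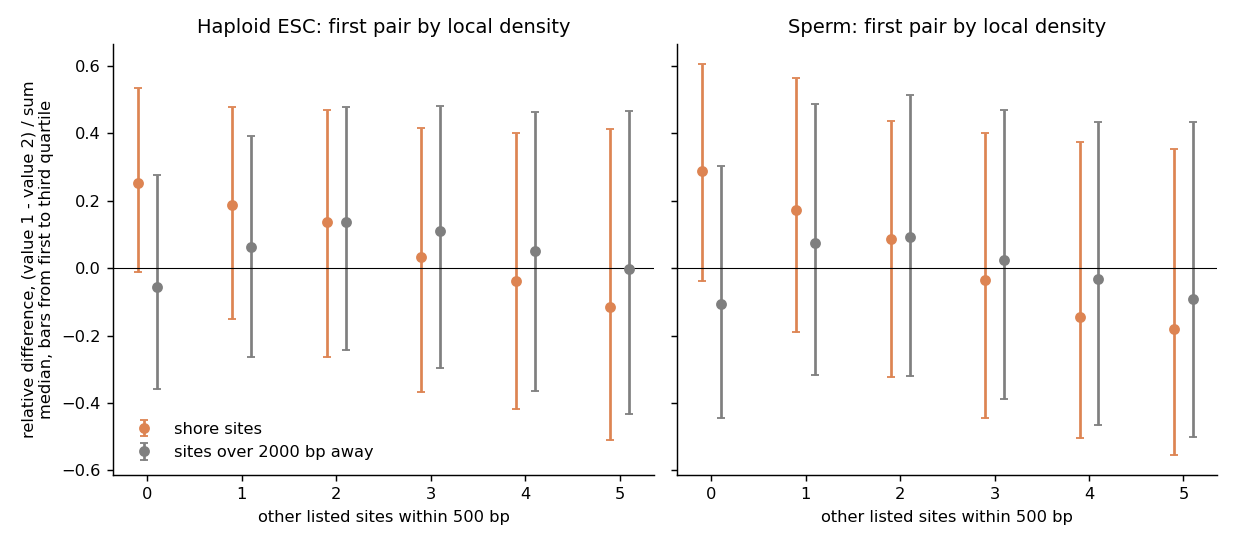
First-pair relative difference, (value 1 − value 2) / sum (vertical axis), by the number of other listed sites within 500 bp (horizontal axis) for shore sites and for sites over 2000 bp from a dense site, in haploid ESC (left) and sperm (right); points are medians and bars run from the lower to the upper quartile. The shore medians fall from 0.252 to −0.116 in haploid ESC and from 0.288 to −0.180 in sperm and cross those of the other sites at 2 neighbours.

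When other sites were weighted to the neighbour counts of the shore sites, most of the excess of calls was gone. Sites over 2000 bp away, weighted in this way, were called for the first pair at 73.2% in haploid ESC and 76.2% in sperm, 2.33 and 1.12 percentage points below the shore sites. For the second pair they were called at 14.1% and 12.4%, which is 1.61 and 1.18 points below. The weighting matched neighbour counts and not the size of the values. Among shore sites with 4 or 5 other sites, the median contrast in haploid ESC was −0.130 at 1 to 250 bp, 0.011 at 250 to 500 bp, −0.084 at 500 to 1000 bp, −0.280 at 1000 to 1500 bp and −0.138 at 1500 to 2000 bp. In sperm it was −0.188, −0.087, −0.171, −0.380 and −0.322. Crowded shore sites thus had value 2 higher at most distances, not only next to the dense sites. Among those with 1 or 2 other sites, the contrast in haploid ESC fell from 0.303 at 250 to 500 bp through 0.188 and 0.173 to 0.091 at 1500 to 2000 bp. In sperm it fell from 0.320 through 0.159 and 0.129 to 0.038. For sparse shore sites value 1 was therefore most in excess close to the cluster.

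The side of the cluster made little difference. Shore sites at lower coordinates than their dense site were called for the first pair at 75.6% in haploid ESC and those at higher coordinates at 75.4%. In sperm the shares were 77.8% and 76.9%. The size of the cluster went with the contrast. Shores of clusters with 1 dense site had a median first-pair contrast of 0.018 in haploid ESC and −0.059 in sperm, those of clusters with 2 or 3 dense sites 0.055 and 0.030, and those of clusters with 4 to 10 dense sites 0.119 and 0.079. First-pair calls did not follow this order, at 75.0%, 76.5% and 74.9% in haploid ESC.

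Most chromosomes showed the same pattern. The share of first-pair calls was higher at shore sites than at sites over 2000 bp away on 19 of the 20 chromosomes in haploid ESC and on 20 of 20 in sperm. The exception was chromosome 18 in haploid ESC, where 61.7% of its 81 shore sites were called, 3.93 points below the other sites. The excess was highest on chromosome 2, at 16.6 points in haploid ESC and 17.7 in sperm. There the 111 shore sites of haploid ESC had a median value 1 of 59.1 and a median value 2 of 23.9, and the 110 of sperm had 101 and 23.8. The shares at shore sites were lower than at dense sites on 18 of 20 chromosomes in haploid ESC and on 20 of 20 in sperm. The median second-pair contrast was lower at shore sites than at sites over 2000 bp away on 20 of 20 chromosomes in both tables. The median first-pair contrast had no such regularity. It was higher at shore sites on 12 of 20 chromosomes in haploid ESC and on 10 of 20 in sperm.

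Wide differences among shore sites went with the state of the cluster they flanked. Clusters were divided by the mean first-pair contrast of their dense sites in the same table, which uses no value of a shore site. In haploid ESC, value 1 was higher at the dense sites of 325 clusters and value 2 at those of 438. In sperm the counts were 303 and 446. Around the 325 clusters, value 1 of haploid ESC shore sites had medians of 83.7, 50.5, 36.9, 30.0 and 23.6 from the innermost to the outermost class. Around the 438 clusters its medians were 11.6, 16.7, 19.2, 19.8 and 21.1. Value 1 thus fell outwards in one class of shore and rose outwards in the other, and the medians came close to each other at 1500 to 2000 bp. Value 2 differed little between them, at 28.5 and 28.4 in the innermost class and 18.4 and 19.7 in the outermost.

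In sperm the same division gave value 1 medians of 123, 104, 78.5, 38.0 and 20.8 around the 303 clusters with value 1 higher. Around the 446 others they were 11.9, 14.3, 17.6, 17.3 and 17.4. From the innermost class to that of 250 to 500 bp, the high class went from 123 to 104 in sperm and from 83.7 to 50.5 in haploid ESC. The scale of the values is not stated and may differ between the tables. The median contrast in haploid ESC ran 0.449, 0.426, 0.395, 0.251 and 0.126 in the high class and −0.388, −0.140, −0.019, 0.049 and 0.010 in the low class. In sperm it ran 0.427, 0.485, 0.442, 0.340 and 0.10 in the high class and −0.461, −0.240, −0.058, −0.052 and −0.058 in the low class. Further out, at 5000 to 10000 bp, the high class had a median of 0.145 in haploid ESC and 0.059 in sperm, and the low class 0.085 and 0.012. Beside these levels the high class was higher at 1000 to 1500 bp, and the low class was lower at 1500 to 2000 bp, in both tables.

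**Figure D4:**
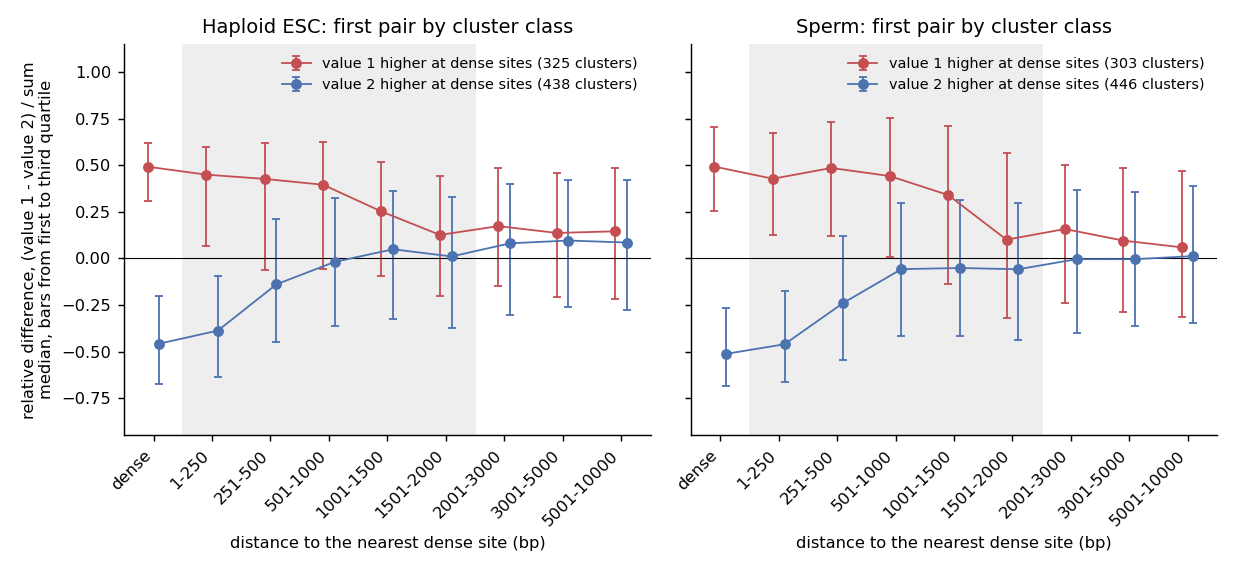
First-pair relative difference (vertical axis) by distance to the nearest dense site in bp (horizontal axis) around clusters whose dense sites had value 1 higher or value 2 higher in the same table, for haploid ESC (left) and sperm (right); points are medians, bars run from the lower to the upper quartile, and the grey band marks the shore. The dense points only restate the division. The upper line stays above 0.25 up to 1500 bp, and the lower line lies between −0.058 and 0.049 from 500 to 2000 bp.

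The contrast of single shore sites tracked that of their cluster less and less with distance. Across shore sites of haploid ESC, Spearman's rho with the mean contrast of the cluster's dense sites was 0.645 at 1 to 250 bp (1602 sites), then 0.451, 0.321, 0.175 and 0.125 at 1500 to 2000 bp (1293 sites). In sperm it was 0.620 (1513 sites), 0.519, 0.362, 0.255 and 0.105 (1217 sites). These sites share libraries, and many share a cluster, so rho is given as a description. Pairs of other sites at the same distances were also alike, which sets the level to read this against. For pairs of 1 shore site and its nearest dense site, rho in haploid ESC was 0.637, 0.445, 0.292, 0.161 and 0.139 across the classes, and for pairs of other sites 0.473, 0.293, 0.158, 0.115 and 0.096. In sperm the pairs with a dense site gave 0.623, 0.529, 0.351, 0.243 and 0.104, and the others 0.528, 0.390, 0.256, 0.182 and 0.136. Shore sites were thus more like their dense site than other pairs were within 1500 bp, and in sperm not beyond it. The other pairs, of sites over 2000 bp from a dense site, were matched by distance and not by neighbour count or size of the values. The part these play was not tested.

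The cell types mostly shared the state of a shore site. Of the 7149 shore sites in both tables, 29.0% were called in both with value 1 higher (21.3% of all shared sites) and 24.1% with value 2 higher in both (20.8%). Value 1 was higher in haploid ESC and value 2 in sperm, each called, at 5.81% (415 sites; 4.85% of all shared sites). The opposite pattern held at 3.65% (261 sites; 4.19%). At 8.99% of shore sites neither table had a call, against 13.4% of all shared sites. Sites called with value 2 higher in haploid ESC and value 1 higher in sperm thinned out with distance, from 5.19% at 1 to 250 bp through 3.86%, 4.95% and 2.39% to 1.70% at 1500 to 2000 bp, and stood at 7.87% among dense sites. The other discordant pattern kept between 4.85% and 6.38% in all 5 classes. Across shore sites the first-pair contrast of haploid ESC and sperm had a Spearman rho of 0.647, against 0.542 over 2000 bp away, and the second-pair contrast a rho of 0.011.

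Clusters whose dense sites differed between the cell types carried the difference into their shores. Of the 739 clusters with dense sites in both tables, 223 had value 1 higher in both, 345 had value 2 higher in both, 94 had value 1 higher in haploid ESC and value 2 in sperm, and 77 the reverse. Around the 94, the median of haploid ESC minus sperm contrast per shore site was 0.365 at 1 to 250 bp, 0.237 at 250 to 500 bp, 0.156 at 500 to 1000 bp, 0.065 at 1000 to 1500 bp and 0.142 at 1500 to 2000 bp. Around the 77 it was −0.570, −0.315, −0.211, −0.044 and 0.087. The difference was thus largest beside the dense sites and small beyond 1000 bp around the 77 clusters. In the innermost class of the 77, the median contrast was −0.439 in haploid ESC and 0.318 in sperm. Around the 223 and the 345 clusters, the median difference over all shore sites was −0.001 and 0.072.

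Single clusters show what these medians are made of. Among the 344 clusters with at least 10 shore sites in both tables, holding 4022 such sites, the mean first-pair contrast of the shore was higher in haploid ESC for 221 and in sperm for 123. The difference ran from −0.706 to 0.602, with a median of 0.070. Per site, the median of this difference was also above 0 elsewhere. It was 0.043 at shore sites, 0.050 at dense sites and 0.025 over all shared sites. The clusters at these ends were chosen by this difference, so their values are a description. Positions are copied from the tables. Their genome build could not be settled from the labels, so no gene is assigned to any cluster.

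**Figure D5:**
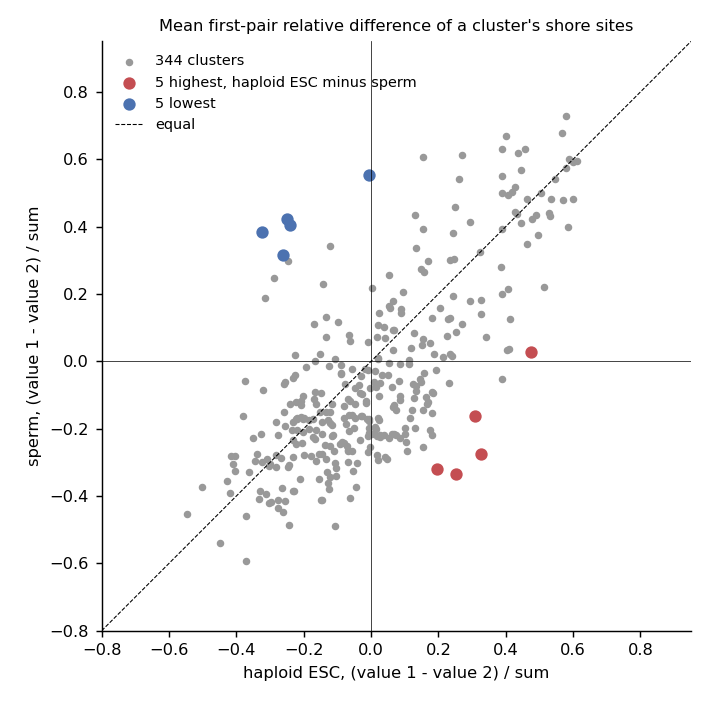
Mean first-pair relative difference over the shore sites of each of 344 clusters with at least 10 shore sites in both tables, haploid ESC (horizontal axis) against sperm (vertical axis); the dashed line marks equal values and the coloured points are the 5 highest and 5 lowest differences. Most clusters follow the dashed line, and the 5 lowest, in blue, lie at the upper left, with sperm values above 0.31 and haploid ESC values below 0.

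The lowest difference belonged to the shore of the dense site at position 93015887 of chromosome 14, with shore sites from 93013946 to 93017430. All 11 shore sites had the higher contrast in sperm. In the authors' deposited sperm table, value 1 of these sites ran from 53.3 to 224 with a median of 124, and value 2 from 3.30 to 153 with a median of 60.4. In the authors' deposited haploid ESC table, value 1 ran from 3.19 to 81.0 with a median of 13.5, and value 2 from 8.16 to 74.9 with a median of 30.1. In sperm 9 of the 11 were called with value 1 higher and none with value 2 higher. In haploid ESC 7 were called with value 2 higher and none with value 1 higher. The mean contrast was −0.32 ± 0.32 in haploid ESC and 0.38 ± 0.29 in sperm (SD over 11 sites of 1 region). At position 93017206, 1319 bp from the dense site, value 1 was 3.32 against a value 2 of 53.8 in haploid ESC and 93.7 against 87.0 in sperm. At position 93016371, 484 bp out, the pair was 17.2 and 16.6 in haploid ESC and 117 and 9.69 in sperm. The dense site itself had value 1 higher in both tables, at 37.6 against 20.7 and 138 against 36.3, so here the shores differed where the dense site did not change direction.

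Around the dense site at position 5588723 of chromosome 10, all 10 shared shore sites again had the higher contrast in sperm. Value 1 ran from 70.3 to 197 in sperm and from 8.29 to 45.7 in haploid ESC, and value 2 from 8.41 to 194 and from 4.49 to 70.7. The cluster was chosen by its difference in contrast, and the scale of the values is not stated, so these ranges only describe it. All 10 shared sites were called with value 1 higher in the authors' deposited sperm table, and 6 were called with value 2 higher in that of haploid ESC. The excess in sperm was small at position 5588096, with 197 against 194. A further shore site at position 5589205, listed in sperm alone, was called with value 2 higher, at 139 against 197. The dense site had 114 against 37.9 in sperm and 21.9 against 45.2 in haploid ESC, the same turn as its shore. The mean contrast of the shore was 0.42 ± 0.26 in sperm and −0.25 ± 0.30 in haploid ESC (SD over 10 sites).

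The shore of the dense sites at positions 29008192 to 29008346 of chromosome 20 differed in value 1 between the tables beside the dense sites and on the side of higher coordinates. At the 6 shore sites within 1000 bp, value 1 in sperm lay between 87.3 and 167 and value 2 between 12 and 35.0. In haploid ESC the same sites had a value 1 between 4.98 and 39.7. At the sites 1447 and 1981 bp below the cluster, value 1 was 20.2 and 20.1 in sperm, and 26.1 and 18.9 in haploid ESC, and neither site was called in the authors' deposited sperm table. The sites 1153, 1495 and 1569 bp above it still had a value 1 of 164, 134 and 167 in sperm, beside 10.5, 26.2 and 46.5 in haploid ESC. High value 1 in sperm thus reached further on the side of higher coordinates, but its excess over value 2 did not do so throughout. Value 2 of these sites in sperm was 169, 54.8 and 264. The site at 1153 bp was not called, that at 1495 bp was called with value 1 higher, and that at 1569 bp with value 2 higher.

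The dense site at position 436043 of chromosome 10 was flanked by a shore on which sperm had value 1 higher in 10 of 11 calls, with values from 73.0 to 161. Haploid ESC was divided there. At 167 bp below and 124 bp above the dense site, value 1 was 1.60 and 1.55, in the lowest band of the table, against a value 2 of 37.0 and 8.90. At the sites 1785 and 1758 bp below, value 1 was 33.9 and 64.7 against 10.5 and 7.46. Haploid ESC and sperm therefore had calls in the same direction at the outer end of this shore and in opposite directions beside the dense site. The remaining one of the 5 lowest, around position 2591558 of chromosome 18, had mean contrasts of −0.26 in haploid ESC and 0.31 in sperm, with value 1 medians of 10.5 and 127.

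At the opposite end stood the cluster at positions 101946981 to 101947330 of chromosome 12, with 4 dense sites and shore sites from 101945105 to 101948864. At its 10 shared shore sites value 1 ran from 8.30 to 125 with a median of 67.4 in haploid ESC and from 3.01 to 40.8 with a median of 10.4 in sperm. Value 2 had similar medians, 21.3 and 21.6. In haploid ESC 8 sites were called with value 1 higher and none with value 2 higher, and in sperm 2 and 6. The mean contrast was 0.33 ± 0.27 in haploid ESC and −0.27 ± 0.46 in sperm (SD over 10 sites). At position 101947420, 90 bp above the cluster, value 1 was 125 in haploid ESC and 3.05 in sperm, and value 2 was 61.0 and 21.9. The sperm value 1 of this site lay in the lowest band of its table. At position 101946285, 696 bp below, value 1 was the higher in both tables, at 37.1 against 9.61 and 9.01 against 1.82, and this was the 1 site with a higher contrast in sperm. All 4 dense sites were called in opposite directions in the tables.

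The dense site at position 104865542 of the same chromosome had a shore of the same kind. Its 11 shared shore sites had a value 1 median of 36.6 in haploid ESC and 11.6 in sperm, and a value 2 median of 19 and 38.9. In haploid ESC 8 were called with value 1 higher and none with value 2 higher, while in sperm 7 were called with value 2 higher and 2 with value 1 higher. The sperm sites called with value 1 higher were 1267 bp below and 853 bp above the dense site, and between them every listed shore site had value 2 higher. At position 104865119, 423 bp below, value 1 was 62.0 against 25.2 in haploid ESC and 3.10, in the lowest band of the table, against 32.7 in sperm. Around positions 168589304 to 168589388 of chromosome 7, 11 of 12 shared shore sites had a higher contrast in haploid ESC, with value 1 medians of 24.5 and 9.06. Around position 6864913 of chromosome 10, all 11 did, although its dense site had value 1 higher in both tables, with contrasts of 0.55 in haploid ESC and 0.62 in sperm. Around positions 1832906 to 1833326 of chromosome 14, all 11 shared shore sites were called with value 1 higher in haploid ESC, although the mean contrast of the 5 dense sites was −0.21, and in sperm 5 were called with value 1 higher and 4 with value 2 higher. At the shore site at position 1831391, listed in haploid ESC alone, value 1 was 1.60, in the lowest band of the table, and value 2 was 33.5.

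The clusters with the most shore sites were chosen by that number and not by a difference in contrast. The largest shore, 20 sites around positions 130385748 to 130386202 of chromosome 9, had 19 sites in both tables, with mean contrasts of −0.01 ± 0.44 in haploid ESC and −0.27 ± 0.41 in sperm (SD over 19 sites). In haploid ESC 6 were called with value 1 higher and 6 with value 2 higher, and in sperm 2 and 8. At position 130386532, 330 bp above the cluster, value 1 was 26.9 against 5.94 in haploid ESC and 37.3 against 190 in sperm. Value 1 was thus similar in both tables at this site and value 2 was not. The shores of 19 sites around position 5731327 to 5731671 of chromosome 1, position 146681008 of chromosome 8 and position 600327 of chromosome 20 had 15, 17 and 16 sites in both tables, and over these the mean contrasts were −0.17, 0.05 and −0.21 in haploid ESC and −0.17, −0.23 and −0.35 in sperm. That of 18 sites around position 6264841 of chromosome 1 had 17 shared sites, with means of 0.15 and −0.15. Calls on these shores of 19 and 18 sites follow in the same order, with value 1 higher first. They were 1 and 7, 3 and 11, 1 and 13, and 3 and 8 in sperm. In haploid ESC they were 1 and 5, 9 and 4, 5 and 9, and 9 and 3. On all 5 of these largest shores the mean over shared sites was negative in sperm.

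The share of second-pair calls in a shore was higher in haploid ESC for 152 of the 344 clusters, higher in sperm for 111 and equal for 81. The largest excess in sperm was at positions 27786656 to 27786667 of chromosome 1, where 6 of 12 shore sites were called in sperm and 1 in haploid ESC. At position 27786761, 94 bp above these dense sites, value 2 was 37.7 and value 3 was 90 in the authors' deposited sperm table, with an adjusted p of 9.34e-10. At position 27785228, 1428 bp below, value 2 was 114 and value 3 was 186. At position 27787028, 361 bp above, the order was reversed, with 37.7 and 17.5. In 5 of the 6 sperm calls value 3 was the higher, and 11 of the 12 sites were called for the first pair with value 1 higher in haploid ESC and 10 in sperm. Next came positions 44634140 to 44634445 of chromosome 1 and 270499 to 271414 of chromosome 6, the latter with 10 dense sites, each with 4 of 11 shared sites called in sperm and none in haploid ESC. The largest excesses in haploid ESC were 4 of 10 shared sites against none at positions 310241 to 310738 of chromosome 14, 4 of 11 against none at position 1687712 of chromosome 19, and 5 of 13 against 1 at position 39132830 of chromosome 1. In the last of these, value 3 was higher in 3 of the 5 haploid ESC calls and value 2 in the other two.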

How the data were processed

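DNA of macaque haploid ESC and sperm was extracted with a QIAamp kit and sequenced as single-end reads of 50 bp, per the labels' protocols. The authors deposited 1 table of 10 unnamed columns per cell type. After chromosome and position, these were taken as a first pair of values with its p-value and adjusted p-value, then a second pair with the same, and value 2 stands in both pairs in every row. This reading is an inference from the deposited values. The values were treated as scores, since their unit, normalization and the digest they belong to are, like the aligner, the counting, the depth and the test behind the p-values, not stated in the labels. The deposited adjusted p-value of the second pair reaches 1.03 and was used as a score with the same threshold. Per the submitters' processing notes the build was hg19, a human one, whereas the tables number 20 autosomes, so positions are given as listed.

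The tables were joined on position with pandas 2.3.3, NumPy 2.4.6 and SciPy 1.17.1, and distances and neighbour counts were checked on simulated positions. No model was fitted and no test was run, because each digest had 1 library per cell type. Named clusters were the 5 with the most shore sites and, among those with at least 10 shore sites in both tables, the 5 highest and 5 lowest in the haploid ESC minus sperm difference of the mean first-pair contrast and the 3 with the largest difference in second-pair calls in each direction. Alternatives changed the density rule, the sites, the chromosomes, the threshold, the measure of contrast and the filter on low values, and one added after the data were seen kept only clusters with 2 or more dense sites. The shore sites, clusters and classes were chosen with earlier results of these data known.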

Additional observations from a re-analysis of the deposited data

Results flagged for a closer look

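Shore sites on chromosome X were outside the comparisons above, which cover chromosomes 1 to 20. By the same rule X had 66 shore sites and 20 dense sites. Of the 65 X shore sites in the authors' deposited haploid ESC table, 60 were called for the first pair, 92.3% (95% Wilson interval 83.2% to 96.7%). Of the 62 in the authors' deposited sperm table, 57 were called, 91.9% (82.5% to 96.5%). Of all X sites in these tables, 67.2% and 63.5% were called. At shore sites of chromosomes 1 to 20 the shares were 75.5% and 77.3%. No control sample was measured, and the difference was not tested.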

How the results depend on the processing

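Among the recomputed values 19 moved and 51 did not, by the measure that a share or contrast stays within its interval, a count within 1.5 times, rho within 0.1, and a log2 ratio, on another scale, on the same side of 0 by its own interval. The sign changed only for the median second-pair contrast at shore minus dense sites, which was near 0. A dense site with 5 or more other sites gave 26069 shore sites and one with 8 or more gave 410, against 7866. The share of first-pair calls at shore minus dense sites was −8.38 percentage points in haploid ESC and −8.60 in sperm. It became −6.23 in haploid ESC with 5 or more other sites, −11.6 and −11.9 at an adjusted p below 0.01, and −15.0 and −14.7 below 0.001. The same share at 1 to 500 bp minus 1500 to 2000 bp was 8.02 and 11.3 points. It became 15.5 in haploid ESC with 8 or more other sites, 12.3 below 0.01 and 13.9 below 0.001, and 17.3 in sperm below 0.001. The median first-pair contrast at shore minus dense sites, 0.187 and 0.134, fell to 0.069 and 0.033 over sites whose pair summed to at least the median, where the dense median turned from −0.133 to 0.127 in haploid ESC and from −0.135 to 0.078 in sperm. For the second pair, shore minus dense calls were −1.77 and −3.70 points. With 8 or more other sites they were −5.25 and −0.153, and below 0.001 in sperm −1.59. The median second-pair contrast at shore minus dense sites, 0.00047 in haploid ESC and 0.0074 in sperm, became −0.040 and −0.0074 with 8 or more other sites, and 0.026 in sperm as a log2 ratio. The cause of these shifts was not tested. With clusters of 2 or more dense sites, rho at 1 to 250 bp was 0.642 in haploid ESC and 0.650 in sperm. No paired analysis was possible because each digest of each cell type has 1 library. The unknown read depth limits single sites, most of all sperm sites whose value 1 lies in the lowest bands.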
